A study of Mus musculus with 27 samples.

Results

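The antioxidant and redox genes described here are 32 genes taken by name, with no measured value in the rule, and all 32 were found among the 35275 genes of the expression tables. They are the transcription factor gene Nfe2l2 and its partner Keap1, the superoxide and peroxide enzymes Sod1, Sod2, Cat, Gpx1 and Gpx4, the peroxiredoxins Prdx1 to Prdx6 with Srxn1, the thioredoxin and glutaredoxin genes Txn1, Txn2, Txnrd1, Txnrd2, Txnip, Glrx and Glrx2, the glutathione genes Gclc, Gclm, Gss, Gsr and Gstp1, the NADPH enzymes G6pdx and Pgd, and Hmox1, Nqo1, Mt1 and Mt2. RNA-seq measured them in CD8 T cells of P14 mice, whose transgenic T cell receptor sees a peptide of lymphocytic choriomeningitis virus. The 27 libraries fall into 9 groups of 3 biological replicates, from WT, lin28Tg and let-7Tg animals at 3 stages. All genotypes carried P14, which the study's methods place on a Rag2-/- background, and mice of both sexes aged 6 to 10 weeks were used. lin28Tg cells express Lin28b, an RNA-binding protein that keeps let-7 precursors from maturing, and the lin28 transgene is already active in the thymus. let-7Tg cells carry a doxycycline-inducible let-7g transgene in the Col1a1 locus, and control mice were also given doxycycline in their drinking water.

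Naive cells came from lymph nodes and were not stimulated. The 12 h cells were activated with anti-CD3 at 2 μg/mL and anti-CD28 at 5 μg/mL, with doxycycline at 2 μg/mL for every genotype. The day 5 CTLs (cytotoxic T lymphocytes) were raised with irradiated splenocytes and anti-CD3 at 2 μg/mL, received IL-2 at 100 U/mL, and were cultured with doxycycline at 2 μg/mL. The culture medium of the study contained β-mercaptoethanol, a reducing agent. Stage, culture conditions and any processing batch of a stage cannot be told apart. In bulk libraries, fewer cells of a type and less RNA per cell cannot be told apart either. Lin28b was at 56.4 to 67.9 FPKM in naive lin28Tg libraries, 9.94 to 12.6 FPKM at 12 h and 14.0 to 22.4 FPKM on day 5, against at most 0.0590 FPKM in every other library. FPKM scales reads by gene length and by library size, so levels of different genes can be set side by side.

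Cells remove superoxide with superoxide dismutases, and the resulting hydrogen peroxide with catalase, glutathione peroxidases and peroxiredoxins. The peroxide-reducing enzymes are recharged through thioredoxin or glutathione, whose reductases draw on NADPH from the pentose phosphate pathway. NRF2, the product of Nfe2l2, is held back by KEAP1 and induces many of these genes under oxidative or electrophilic stress, while metallothioneins bind zinc and copper and are induced by metal. T cells form reactive oxygen species on activation, and redox balance is known to bear on their growth and survival.

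The genotypes differ in let-7, so the let-7g sequence is shown with the matches to its seed (bases 2 to 8, in capitals) among these genes. The mature miRNA lies at chr9:106178846-106178867 on the plus strand (RefSeq, GRCm38.p6). A match to the seed, 7 bases in capitals below, was present in the 3′ UTR, read from each gene's longest protein-coding transcript in GENCODE M21, of 2 of the 32 genes (6.25%), against 1856 of 21901 genes (8.47%). Sod2 held 2 matches, at chr17:13015745-13015767 and chr17:13017154-13017176 on the plus strand. Glrx held 1, at chr13:75849466-75849488 on the plus strand. A match is a description of letters and no evidence of binding.
mmu-let-7g-5p: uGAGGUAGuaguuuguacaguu
Sod2 match 1: gcaaggccctgggctCTACCTCa
Sod2 match 2: cctctcagatcctccCTACCTCc
Glrx match: tgtgccaacatgtctCTACCTCt

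In WT cells the redox genes changed widely between stages. From naive to 12 h, 19 of 32 rose and 6 fell (limma, adjusted p under 0.05), where 35.7% of all 14449 genes tested rose and 35.3% fell. The median log2 change of the 32 genes was 0.73, and that of all genes was -0.025. A log2 change here is a difference of log2(FPKM + 0.5) after scaling between libraries, which understates changes of low genes. Nfe2l2 and Keap1 were both among the genes that fell, and thioredoxin, peroxiredoxin, glutathione and NADPH genes were among those that rose. Without scaling between libraries the median of all genes moved by -0.16, and that of the redox genes was 0.48. In that fit 18 redox genes rose and 7 fell, where 4215 of all 14449 genes rose and 6106 fell.

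Nfe2l2 fell from 24.3, 23.0 and 22.8 FPKM in naive WT libraries to 10.3, 11.4 and 8.84 FPKM at 12 h (log2 change -0.92, SE 0.20, limma adjusted p = 0.000232). Keap1 fell by 0.57 on the log2 scale. The superoxide dismutases rose, cytosolic Sod1 by a log2 change of 1.22 and mitochondrial Sod2 by 1.32. Catalase (Cat), the peroxisomal enzyme that splits hydrogen peroxide, went the other way, from 52.6, 51.2 and 50.4 FPKM to 17.9, 15.8 and 14.9 FPKM, without overlap (log2 change -1.39, SE 0.11, adjusted p = 8.42e-11). Gpx4, which reduces lipid peroxides in membranes, fell by 1.27 on the log2 scale, and Gpx1, the abundant cytosolic glutathione peroxidase, rose by a log2 change of 0.68.

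Of the 6 peroxiredoxins, 5 rose, by log2 changes of 0.71 for Prdx2 to 1.71 for Prdx3, the mitochondrial member. Prdx3 stood at 36.0, 37.1 and 32.5 FPKM in naive and at 101, 90.5 and 103 FPKM in 12 h WT libraries (SE 0.11, adjusted p = 5.09e-12). Prdx4, the member of the endoplasmic reticulum, was at 3.29 to 4.10 FPKM in naive and 2.85 to 6.13 FPKM in 12 h libraries and did not pass the test. Srxn1 (sulfiredoxin), which repairs overoxidised peroxiredoxins, was at 1.78, 0.819 and 1.05 FPKM in naive and at 2.52, 12.4 and 2.47 FPKM in 12 h libraries. Replicate 2 was the high 12 h library for Srxn1. The log2 change of Srxn1 was 1.75 (SE 0.54, adjusted p = 0.00615), and it was 1.06 (adjusted p = 0.0741) without WT 12 h replicate 2.

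Txn1, cytosolic thioredoxin, showed the steepest rise, from 59.2, 48.4 and 44.1 FPKM to 399, 348 and 387 FPKM (log2 change 3.15, SE 0.14, adjusted p = 2.37e-14). Its inhibitor Txnip showed the steepest fall, from 252, 308 and 329 FPKM to 15.3, 13.7 and 22.1 FPKM (log2 change -3.86, SE 0.26, adjusted p = 1.41e-11). Mitochondrial thioredoxin Txn2 rose from 109, 113 and 110 FPKM to 258, 285 and 268 FPKM. The reductases Txnrd1 and Txnrd2 rose by log2 changes of 1.20 and 1.18. Glrx, cytosolic glutaredoxin, which removes glutathione from protein thiols, fell from 9.20, 10.7 and 9.94 FPKM to 3.00, 2.53 and 2.56 FPKM (log2 change -1.49, SE 0.21, adjusted p = 1.22e-06), and the mitochondrial Glrx2 rose by 0.52.

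Among glutathione genes, Gsr (glutathione reductase) rose from 28.9, 27.3 and 25.8 FPKM to 79.6, 67.5 and 76.2 FPKM, a log2 change of 1.68 (SE 0.14, adjusted p = 4.89e-10). Gclm, the regulatory subunit of the rate-limiting ligase, and Gss, glutathione synthetase, rose by 0.99 and 0.49, and the catalytic subunit Gclc (19.3 to 21.1 FPKM in naive, 19.2 to 20.4 FPKM at 12 h) did not pass the test. G6pdx and Pgd, the NADPH-forming enzymes of the pentose phosphate pathway, rose by 1.21 and 0.90. Hmox1, Nqo1, Gstp1, Mt1 and Mt2 did not pass the test at this step. Nqo1 was at most 1.07 FPKM in any of the 27 libraries, so that its values rest on few reads.

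**Figure D1:**
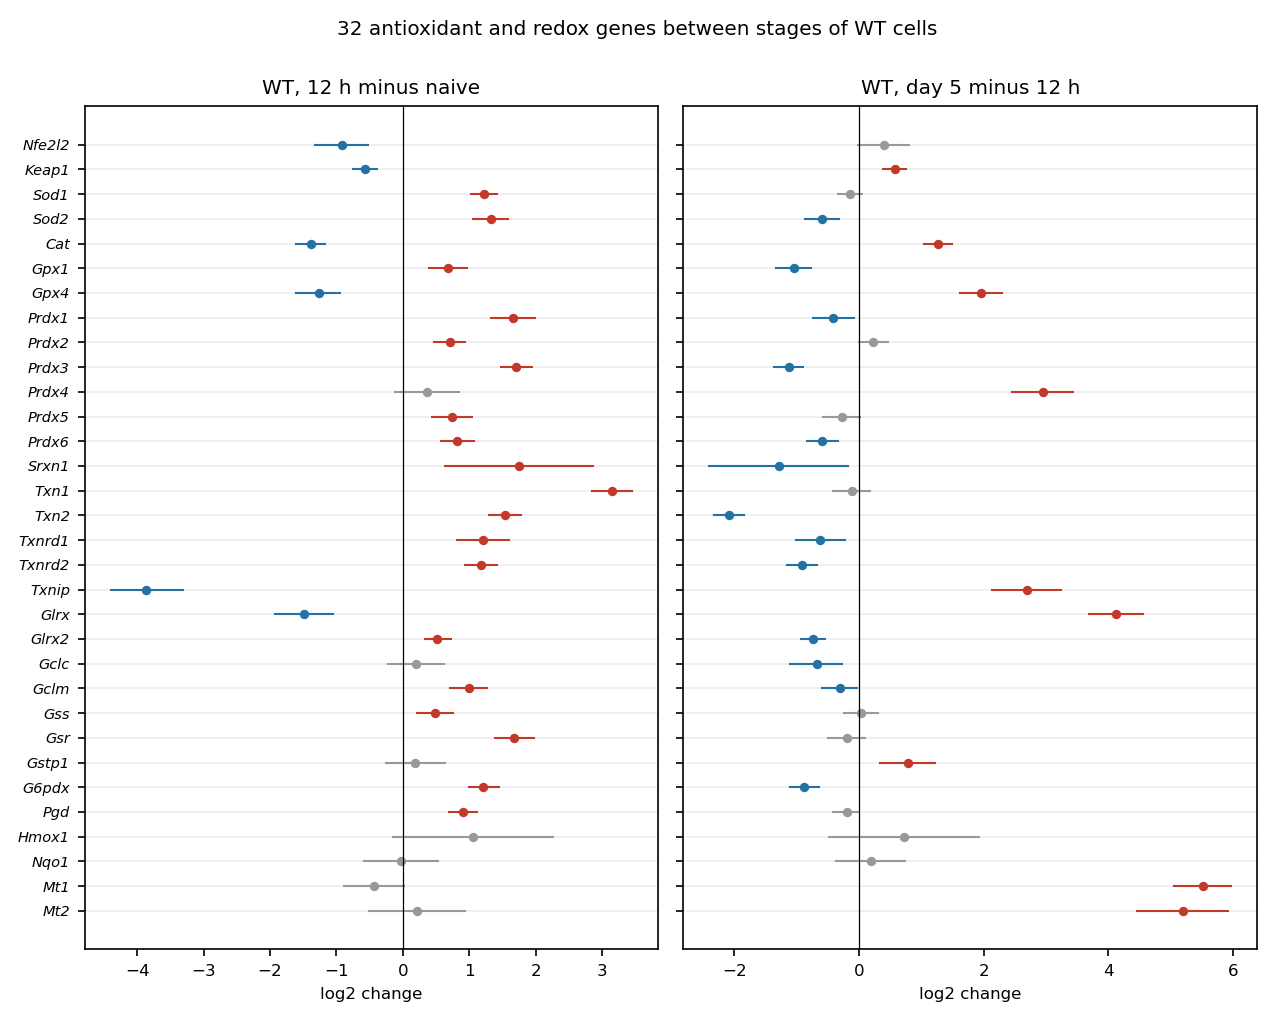
Log2 change of the 32 redox genes in WT cells, 12 h minus naive (left) and day 5 minus 12 h (right), with points for the model estimate and lines for its 95% confidence interval, in red and blue where the limma adjusted p was under 0.05 and in grey otherwise. Txn1 (3.15) and Txnip (-3.86) mark the ends of the left panel, and Mt1 (5.52) and Mt2 (5.20) lie farthest right in the right panel.

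From 12 h to day 5, 9 of the 32 genes rose in WT cells and 13 fell, where 33.1% of all genes rose and 34.4% fell. The median log2 change was -0.17 for the 32 genes and -0.0079 for all genes. The largest rises were those of the metallothioneins. Mt1 went from 2.23, 2.32 and 3.19 FPKM to 188, 126 and 150 FPKM (log2 change 5.52, SE 0.22, adjusted p = 2.67e-15). Mt2 went from 1.53, 0.537 and 0.803 FPKM to 49.6, 45.9 and 71.6 FPKM (log2 change 5.20, SE 0.35, adjusted p = 1.83e-11). Both genes stood far above every earlier WT library.

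Mt1 and Mt2 are neighbours on mouse chromosome 8, and the 250 bases before each start are shown because the 2 genes rose together. Capitals mark matches to the letters TGCNCNC of the metal response element, searched on both strands. Mt1 held 1 match in this stretch, at chr8:94178839-94179088, and Mt2 held 5, at chr8:94172368-94172617, both on the plus strand (RefSeq, GRCm38.p6). These letters are common. They occurred in 51.0% of 32851 promoter windows of 300 bases (250 before to 50 after the start) and in 63.2% of the 38 windows of the redox genes, of which 28 of 32 had an entry. For Srxn1, at chr2:152105274-152105523 on the plus strand, capitals mark 2 matches to the AP-1 letters TGANTCA, which 7.81% of all windows and 15.8% of the windows of the redox genes held. The letters TGACNNNGC of the antioxidant response element, whose first 3 bases are those of the AP-1 letters, were in 12.4% of all windows and in 23.7% of these, and the E-box CACGTG was in 7.15% and 5.26%.
Mt1: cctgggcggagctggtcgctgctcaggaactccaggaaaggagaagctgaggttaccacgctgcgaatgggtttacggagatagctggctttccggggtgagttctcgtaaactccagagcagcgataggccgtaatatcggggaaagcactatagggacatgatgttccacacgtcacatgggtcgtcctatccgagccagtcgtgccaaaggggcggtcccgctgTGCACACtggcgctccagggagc
Mt2: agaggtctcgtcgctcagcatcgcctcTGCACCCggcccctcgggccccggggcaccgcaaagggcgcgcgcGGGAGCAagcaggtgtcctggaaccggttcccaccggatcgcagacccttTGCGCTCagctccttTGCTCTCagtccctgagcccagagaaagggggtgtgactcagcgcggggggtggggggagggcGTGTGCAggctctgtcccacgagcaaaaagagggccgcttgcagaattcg
Srxn1: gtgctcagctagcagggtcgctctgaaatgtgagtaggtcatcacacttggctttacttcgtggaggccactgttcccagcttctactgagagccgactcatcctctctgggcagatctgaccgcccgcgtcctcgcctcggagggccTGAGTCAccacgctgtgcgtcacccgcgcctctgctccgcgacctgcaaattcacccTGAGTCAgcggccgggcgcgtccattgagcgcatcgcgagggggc

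Glrx, which had fallen at 12 h, rose to 60.9, 75.1 and 48.4 FPKM in day 5 WT libraries (log2 change 4.12, SE 0.21, adjusted p = 1.39e-13). Prdx4 rose to 37.7, 35.7 and 40.8 FPKM, a log2 change of 2.95. Txnip, Gpx4 and Cat came back from their 12 h levels by log2 changes of 2.69, 1.96 and 1.27, and Gstp1 and Keap1 rose by 0.78 and 0.57. The mitochondrial enzymes Txn2, Prdx3, Txnrd2 and Sod2 fell, with log2 changes of -2.08, -1.13, -0.92 and -0.59. Txn2 ended at 73.1, 63.4 and 76.7 FPKM, below its naive level in every library. Srxn1 fell by 1.28 on the log2 scale (adjusted p = 0.0397), a call that was lost without WT 12 h replicate 2 (log2 change -0.59, adjusted p = 0.327), WT day 5 replicate 1 (adjusted p = 0.0791) or WT day 5 replicate 3 (adjusted p = 0.125). Prdx1 fell by 0.41, and its adjusted p was 0.0672 to 0.191 without WT 12 h replicate 1 or 3 or WT day 5 replicate 1 or 2.

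Some genes differed among the replicates of day 5 cells. Nfe2l2 was at 11.5, 13.4 and 22.0 FPKM, Gclc at 10.4, 11.1 and 20.9 FPKM and Txnrd1, the cytosolic thioredoxin reductase, at 37.8, 40.3 and 64.7 FPKM. Replicate 3 was the high library for all 3 genes. Replicate 3 was also the highest of the day 5 let-7Tg libraries, with Nfe2l2 at 20.1, 18.7 and 31.2 FPKM, Gclc at 12.8, 12.8 and 21.2 FPKM and Txnrd1 at 39.8, 44.7 and 73.4 FPKM. In lin28Tg replicate 3 was highest for Gclc (10.4, 11.2 and 14.9 FPKM) and Txnrd1 (43.1, 57.7 and 58.8 FPKM) but lowest for Nfe2l2 (11.0, 11.4 and 9.24 FPKM). Srxn1 was instead lowest in replicate 3 of WT (1.67, 2.54 and 1.12 FPKM) and let-7Tg (3.54, 4.92 and 1.88 FPKM). These genes were chosen after their values were seen, and the spread was not tested.

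The other genotypes passed through the same stages. In lin28Tg cells 16 genes rose and 9 fell from naive to 12 h (34.9% and 38.6% of all genes), and 9 rose and 13 fell to day 5 (32.8% and 33.5%). In let-7Tg cells 20 rose and 6 fell to 12 h (34.3% and 35.0%), and 9 rose and 12 fell to day 5 (34.0% and 33.1%). Median log2 changes of the redox genes to 12 h were 0.38 in lin28Tg and 0.73 in let-7Tg. The lin28Tg median was 0.58 without naive lin28Tg replicate 2 and 0.61 with replicate 1 as the only naive lin28Tg library. Without scaling between libraries the medians were 0.14 in lin28Tg and 0.50 in let-7Tg, and those of all genes were -0.24 and -0.18. In lin28Tg cells Hmox1, Mt1 and Mt2 also fell to 12 h, with log2 changes of -3.03, -2.18 and -1.36, from naive libraries that stood apart as described next. Without naive replicate 2 these changes were -1.98, -1.91 and -1.45, and with replicate 1 alone -0.96 (adjusted p = 0.0482), -1.86 and -1.59.

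The naive lin28Tg libraries carried RNA of other blood cells. The summed level of 12 myeloid markers was 247, 990 and 512 FPKM in lin28Tg replicates 1, 2 and 3, against 53.0 to 81.5 FPKM in WT and 35.1 to 79.4 FPKM in let-7Tg, and all 9 of the myeloid markers that could be tested were higher than in either genotype. Erythroid markers summed to 1047, 1997 and 495 FPKM in lin28Tg replicates 1, 2 and 3, against 153 to 292 FPKM in WT and 2.44 to 39.6 FPKM in let-7Tg. NK markers summed to 167 to 452 FPKM in lin28Tg, against at most 111 FPKM in WT and let-7Tg. CD4 T cell markers summed to 24.1 to 83.5 FPKM in lin28Tg and to at most 23.7 FPKM in the other naive libraries. The CD4 list did not move as a set, since 2 of its 4 tested genes were called higher and 2 lower against either genotype. The sum of 7 CD8 T cell markers was 4025 to 4480 FPKM in lin28Tg and 4503 to 5079 FPKM in WT. Myeloid cells and red cell precursors express many redox genes, among them Hmox1, Gpx1, Gsr and the peroxiredoxins. The part of these cells in the naive results was not tested. The naive comparisons of lin28Tg are therefore given with all libraries, without replicate 2, which had the highest myeloid sum, and with replicate 1 as the only lin28Tg library. That last choice was made after seeing the data, and replicate 1 is assumed in it to vary like the other groups. Replicate 1 had the lowest myeloid sum in lin28Tg, but its myeloid, erythroid and NK sums still stood above those of WT and let-7Tg. Its erythroid sum was also above that of replicate 3.

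In naive cells, 14 redox genes were higher and 1 was lower in lin28Tg than in WT, of 31 tested, where 19.0% of all 13262 genes were higher and 15.9% lower. Mt2 is among these 14, and among the 16 higher than in let-7Tg given below. It met the filter on low reads only through the lin28Tg libraries, so it adds no support to either count. The median log2 difference was 0.27, against -0.040 for all genes. Without lin28Tg replicate 2, 9 were higher and 1 lower (13.6% and 9.71% of all genes), and with replicate 1 alone 4 of 30 were higher and 0 lower (4.56% and 2.29%, with 10 at an unadjusted p under 0.05), namely Gpx1, Txn1, Hmox1 and Mt1. Against let-7Tg, 16 were higher and 2 lower in lin28Tg (23.0% and 21.2% of all genes), 13 and 2 without replicate 2, and 9 and 1 of 30 with replicate 1 alone (11.0% and 7.45%). Without scaling between libraries, 17 were higher and 1 lower than in WT, where 2844 of all 13262 genes were higher and 1439 lower. The share of higher genes among all those called went from 54.5% to 66.4%. The comparisons with WT and with let-7Tg share the lin28Tg libraries.

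Hmox1, heme oxygenase, which macrophages express strongly, was at 10.4, 194 and 45.2 FPKM in naive lin28Tg libraries, in the order of their myeloid sums, at 1.84, 0.882 and 0.955 FPKM in WT and at 3.01, 1.11 and 0.899 FPKM in let-7Tg. Its log2 difference to WT was 4.73 (SE 0.83, adjusted p = 0.00300), and 3.70 without replicate 2 and 2.71 with replicate 1 alone. With voom on recovered reads the difference to WT did not pass (adjusted p = 0.151). Gpx1 was at 167, 251 and 175 FPKM against 123, 128 and 123 FPKM in WT and 107, 121 and 116 FPKM in let-7Tg, and its log2 difference to WT was 0.58 (SE 0.14, adjusted p = 0.0101), 0.40 without replicate 2 and 0.42 with replicate 1 alone. Txn1 was at 81.7, 131 and 110 FPKM against 59.2, 48.4 and 44.1 FPKM in WT (log2 difference 1.00, SE 0.15, adjusted p = 0.00154), and 0.86 without replicate 2 and 0.70 with replicate 1 alone.

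The metallothioneins were low in naive cells but separated. Mt1 was at 16.4, 29.8 and 17.6 FPKM in lin28Tg against 3.29, 3.93 and 6.03 FPKM in WT (log2 difference 2.08, SE 0.27, adjusted p = 0.000711) and 4.66, 5.27 and 3.47 FPKM in let-7Tg. The difference to WT was 1.82 both without replicate 2 and with replicate 1 alone. Mt2 was at 5.68, 4.04 and 4.60 FPKM against 0.571, 0.892 and 1.15 FPKM in WT (log2 difference 1.91, SE 0.33, adjusted p = 0.00270, and 2.02 without replicate 2). Mt2 passed the filter on low reads in naive cells only through the lin28Tg libraries, where it was high, so its naive call is no separate support. With replicate 1 alone it was not among the genes tested. Its highest lin28Tg library was the one with the lowest myeloid sum, which did not have the lowest erythroid sum. Srxn1 was at 4.42, 5.57 and 4.07 FPKM in lin28Tg, 1.78, 0.819 and 1.05 FPKM in WT and 1.28, 0.470 and 0.953 FPKM in let-7Tg, with a log2 difference to let-7Tg of 1.91 (SE 0.26, adjusted p = 0.000500) of 1.80 without replicate 2 and of 1.90 with replicate 1 alone. Its difference to WT was 1.58 (adjusted p = 0.00225), 1.47 without replicate 2, and with replicate 1 alone it was 1.56 and did not pass (adjusted p = 0.0521).

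Gsr was at 36.1, 56.4 and 45.0 FPKM in naive lin28Tg libraries against 25.8, 23.1 and 24.4 FPKM in let-7Tg (log2 difference 0.87, SE 0.13, adjusted p = 0.000827), 0.72 without replicate 2 and 0.61 with replicate 1 alone. Pgd was at 99.0, 111 and 102 FPKM against 58.0, 59.0 and 72.8 FPKM in let-7Tg (log2 difference 0.71, SE 0.086, adjusted p = 0.000270), 0.68 without replicate 2 and 0.70 with replicate 1 alone. Txn2 was at 125, 135 and 125 FPKM in lin28Tg, 109, 113 and 110 FPKM in WT and 86.0, 92.3 and 75.0 FPKM in let-7Tg. The lin28Tg difference of Txn2 to let-7Tg was 0.60 (adjusted p = 0.000569), 0.57 without replicate 2 and 0.62 with replicate 1 alone, and let-7Tg was lower than WT (log2 difference -0.45, adjusted p = 0.0456). That last call was lost, with adjusted p of 0.0703 to 0.177, when any of the 3 WT libraries, let-7Tg replicate 1 or 3, or lin28Tg replicate 1 or 3 was left out.

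G6pdx was at 38.9, 53.9 and 38.8 FPKM in lin28Tg and 31.7, 31.3 and 29.9 FPKM in let-7Tg (log2 difference 0.47, SE 0.12, adjusted p = 0.00959), 0.33 without replicate 2 and 0.38 with replicate 1 alone. The mitochondrial Txnrd2 was the gene lower than in WT, at 11.1, 12.1 and 10.7 FPKM against 14.4, 15.7 and 17.7 FPKM (log2 difference -0.53, SE 0.11, adjusted p = 0.00487). Without replicate 2 this was -0.57, and with replicate 1 alone it was -0.50 and did not pass (adjusted p = 0.0861). Sod2, Cat, Prdx1, Prdx2, Prdx4 and Glrx also stood above let-7Tg, by log2 differences of 0.32 to 0.55, and none of these 6 passed with replicate 1 alone. Leaving out lin28Tg replicate 2 also ended the calls of Prdx2 (adjusted p = 0.125), Prdx4 (0.0772) and Glrx (0.0635), and leaving out let-7Tg replicate 3 those of Cat (0.0649), Prdx4 (0.0834) and Glrx (0.0593). Prdx4 was also lost without lin28Tg replicate 3 (0.0827), and Prdx4 and Glrx without let-7Tg replicate 2 (0.0576 and 0.0881). Sod1, at 190, 238 and 192 FPKM in lin28Tg and 169, 155 and 157 FPKM in WT, passed against WT (log2 difference 0.30, adjusted p = 0.0420) and, without replicate 2, did not (0.21, adjusted p = 0.110).

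**Figure D2:**
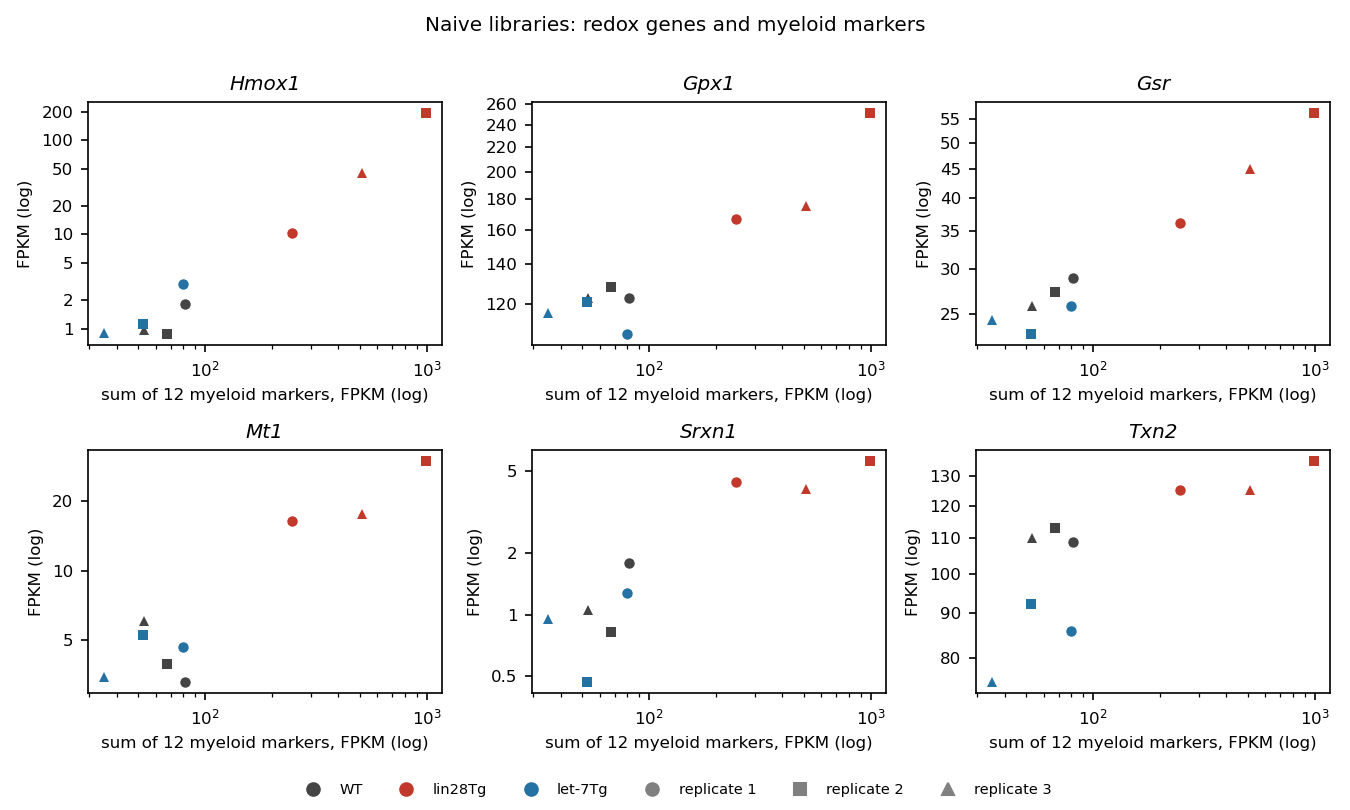
FPKM of 6 redox genes (vertical log axis) against the summed FPKM of 12 myeloid markers (horizontal log axis) in the 9 naive libraries, colour for genotype and shape for replicate. The 3 lin28Tg libraries lie at 247, 512 and 990 FPKM of marker sum, right of all others, and Hmox1 rises with the sum among them from 10.4 to 194 FPKM, while Txn2 spans 125 to 135 FPKM.

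Nfe2l2 had its highest mean in let-7Tg cells at each of the 3 stages. In naive libraries it stood at 36.0, 39.0 and 34.5 FPKM in let-7Tg, at 24.3, 23.0 and 22.8 FPKM in WT and at 26.1, 30.7 and 29.6 FPKM in lin28Tg, and no library overlapped between genotypes. The log2 difference of let-7Tg to WT was 0.58 (SE 0.078, adjusted p = 0.0137), and Nfe2l2 was the 1 redox gene called higher in this comparison, where 0.302% of all genes were higher and 0.633% lower, with Txn2 the 1 called lower. The call was lost without WT replicate 2 or 3 (adjusted p = 0.0837 and 0.0695) or let-7Tg replicate 1 (adjusted p = 0.0523). lin28Tg was above WT by 0.23 (adjusted p = 0.0427), and this passed in none of the runs without 1 WT library, with adjusted p of 0.0636 to 0.115, nor without lin28Tg replicate 2 or 3 (0.120 and 0.0929). lin28Tg was below let-7Tg (log2 difference -0.34, SE 0.078, adjusted p = 0.00624), and the difference was -0.38 without lin28Tg replicate 2 and -0.42 with replicate 1 alone. With all 27 libraries in 1 model none of these 3 naive differences of Nfe2l2 passed (0.58, 0.25 and -0.32, adjusted p = 0.260, 0.370 and 0.214).

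At 12 h fewer redox genes separated the genotypes. Between lin28Tg and WT, 0 of 31 passed in limma (6.09% of all 12231 genes were higher and 2.40% lower), with 6 at an unadjusted p under 0.05, and voom on recovered reads called 1. Between let-7Tg and WT, Nfe2l2 passed as the 1 gene higher and 0 were lower (1.38% and 1.88% of all genes, 9 redox genes at an unadjusted p under 0.05, and 1 call by voom). Between lin28Tg and let-7Tg, 4 were higher and 1 was lower in lin28Tg (16.3% and 14.6% of all genes). The median log2 difference of the last comparison was 0.038, against -0.015 for all genes. Myeloid marker sums at 12 h were 12.5 to 24.0 FPKM in lin28Tg and 6.68 to 15.4 FPKM in the other genotypes, and erythroid sums were 83.7 to 694 FPKM in lin28Tg and 1.51 to 4.71 FPKM in let-7Tg. Their part in the 12 h results was not tested.

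Nfe2l2 was at 16.2, 27.4 and 18.9 FPKM in 12 h let-7Tg libraries, 10.3, 11.4 and 8.84 FPKM in WT and 11.0, 11.4 and 12.8 FPKM in lin28Tg. All let-7Tg libraries lay above the other 6, with replicate 2 highest. The log2 difference of let-7Tg to WT was 0.94 (SE 0.16, adjusted p = 0.0225, and 0.0321 with replicates paired by number). The call was lost without WT replicate 1, 2 or 3 (adjusted p = 0.0745, 0.0503 and 0.104) or let-7Tg replicate 3 (0.0557), while the log2 difference stayed between 0.86 and 1.01 in these runs. lin28Tg was below let-7Tg (log2 difference -0.76, SE 0.16, adjusted p = 0.00675).

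Gsr was at 83.0, 87.5 and 84.0 FPKM in 12 h lin28Tg libraries, 79.6, 67.5 and 76.2 FPKM in WT and 61.6, 50.7 and 55.9 FPKM in let-7Tg. Pgd was at 122, 131 and 132 FPKM, 112, 103 and 113 FPKM, and 89.7, 86.0 and 92.0 FPKM in the same order. For both enzymes the order of the genotypes was lin28Tg, WT, let-7Tg without overlap, and lin28Tg exceeded let-7Tg by log2 differences of 0.61 for Gsr (SE 0.10, adjusted p = 0.00251) and 0.53 for Pgd (SE 0.078, adjusted p = 0.00120). Gpx4 was at 73.9, 91.0 and 96.4 FPKM in lin28Tg and 51.4, 49.6 and 60.6 FPKM in let-7Tg (log2 difference 0.69, SE 0.16, adjusted p = 0.0107). Sod2, which holds let-7 seed matches, was at 24.5, 26.4 and 26.0 FPKM in lin28Tg, 26.4, 25.2 and 24.7 FPKM in WT and 22.1, 17.1 and 18.8 FPKM in let-7Tg (log2 difference of lin28Tg to let-7Tg 0.42, SE 0.11, adjusted p = 0.0183). Without lin28Tg replicate 2 or 3, Sod2 did not pass (adjusted p = 0.0654 and 0.0587). Srxn1 varied most among replicates at 12 h, with 4.01, 24.5 and 4.41 FPKM in let-7Tg and 14.9, 9.56 and 9.34 FPKM in lin28Tg. In WT and let-7Tg alike its high library was replicate 2.

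In day 5 CTLs, 5 of 32 redox genes were higher and 5 lower in lin28Tg than in let-7Tg, where 10.9% of all 13016 genes were higher and 10.7% lower. The median log2 difference was 0.15, against 0.0033 for all genes. Glrx, Gsr, Pgd, Hmox1 and Prdx5 were higher in lin28Tg, and Nfe2l2, Prdx4, Txnip, Mt1 and Mt2 were higher in let-7Tg. Replicates with the same number deviated together on day 5, and with the replicate number as a block 11 genes were higher and 6 lower, where the same fit called 18.6% of all genes higher and 17.8% lower, adding Prdx3, Srxn1, Txn1, Txn2, Txnrd2, Glrx2 and Gclm. Without scaling between libraries 5 were higher and 7 lower, where 1077 of all 13016 genes were higher and 2000 lower. The share of higher genes among all those called went from 50.3% to 35.0%. Against WT, 2 were higher and 1 lower in lin28Tg (2.04% and 2.31% of all genes, and 4 and 2 with the block, which called 6.87% and 6.62%), and 1 was higher and 0 lower in let-7Tg (0.576% and 0.361% of all genes, and 1 and 4 with the block, which called 2.10% and 2.00%, with 7 redox genes at an unadjusted p under 0.05 without it). The 2 comparisons with WT share the WT libraries.

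Myeloid and erythroid marker sums were low on day 5. Lyz2 was at most 0.0807 FPKM and Csf1r at most 0.0210 FPKM in any day 5 library, and erythroid sums were 0.954 to 3.00 FPKM. The summed myeloid list was 9.97 to 14.0 FPKM in lin28Tg and 3.70 to 7.11 FPKM in the other genotypes. Itgam, which activated T cells can also express, was at 1.14 to 3.56 FPKM against at most 0.720 FPKM. Cd68 was at 6.05 to 7.87 FPKM in lin28Tg, 3.54 to 5.14 FPKM in WT and 3.41 to 5.72 FPKM in let-7Tg. All 3 myeloid markers that could be tested were called higher in lin28Tg than in let-7Tg, and 1 was called higher than in WT. NK marker sums were 142 to 305 FPKM in lin28Tg, 70.3 to 96.0 FPKM in WT and 18.9 to 47.2 FPKM in let-7Tg. Among them, Klrb1c was at 60.8 to 158 FPKM in lin28Tg, 8.35 to 40.6 FPKM in WT and 2.11 to 4.54 FPKM in let-7Tg. Eomes was at 67.7 to 142, 50.1 to 69.3 and 15.9 to 44.6 FPKM in the same order, and Ncr1 was at most 0.0896 FPKM. All 3 NK markers that could be tested were called higher in lin28Tg than in let-7Tg, and 1 was called higher than in WT. B cell marker sums were 31.9 to 142 FPKM in lin28Tg, 190 to 241 FPKM in WT and 178 to 248 FPKM in let-7Tg, and stromal sums were 3.13 to 7.54 FPKM, 12.9 to 18.8 FPKM and 20.1 to 34.8 FPKM. Their part in the day 5 results was not tested. RNA of the irradiated splenocytes cannot be told apart from that of the CTLs.

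Glrx reached 108, 131 and 95.3 FPKM in day 5 lin28Tg CTLs, 60.9, 75.1 and 48.4 FPKM in WT and 50.6, 54.9 and 32.2 FPKM in let-7Tg. lin28Tg lay above both other groups without overlap, and WT and let-7Tg overlapped. The log2 difference of lin28Tg to let-7Tg was 1.40 (SE 0.21, adjusted p = 0.00231), and to WT 0.92 (SE 0.21, adjusted p = 0.0481, and 0.00219 with the block). Without the block, the call against WT was lost in runs without any 1 of the WT or lin28Tg libraries or without let-7Tg replicate 1 or 2 (adjusted p = 0.0588 to 0.177). let-7Tg was below WT (log2 difference -0.48, adjusted p = 0.397, and 0.0331 with the block).

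Gsr was at 92.4, 109 and 108 FPKM in lin28Tg, 61.6, 76.1 and 80.1 FPKM in WT and 51.0, 53.3 and 66.0 FPKM in let-7Tg, so that lin28Tg stood apart from both. The log2 difference to let-7Tg was 0.97 (SE 0.15, adjusted p = 0.00245), and that to WT was 0.56 (adjusted p = 0.0735, and 0.00601 with the block). Pgd was at 109, 111 and 119 FPKM in lin28Tg, 109, 96.9 and 112 FPKM in WT and 86.7, 74.3 and 93.1 FPKM in let-7Tg, where let-7Tg was the group that stood apart. lin28Tg exceeded let-7Tg by 0.53 (SE 0.11, adjusted p = 0.010), and let-7Tg was below WT (log2 difference -0.38, adjusted p = 0.171, and 0.0381 with the block). Gsr and Pgd were thus called higher in lin28Tg than in let-7Tg at each of the 3 stages. How many of all genes were called so at each stage was not counted.

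Hmox1 was low in day 5 CTLs but ordered, at 8.30, 14.3 and 8.56 FPKM in lin28Tg, 5.04, 4.46 and 5.63 FPKM in WT and 2.81, 1.88 and 1.63 FPKM in let-7Tg. No library overlapped between genotypes. lin28Tg exceeded let-7Tg by a log2 difference of 2.14 (SE 0.24, adjusted p = 0.000654). lin28Tg was above WT by 0.99 (adjusted p = 0.0559, and 0.0391 with the block), and let-7Tg was below WT (log2 difference -1.15, adjusted p = 0.0684, and 0.0472 with the block). Prdx5, a peroxiredoxin of mitochondria and peroxisomes, was at 91.2, 112 and 105 FPKM in lin28Tg and 77.8, 81.8 and 72.1 FPKM in let-7Tg (log2 difference 0.51, SE 0.12, adjusted p = 0.0161). Srxn1 was at 4.89, 12.9 and 6.73 FPKM in lin28Tg against 1.67, 2.54 and 1.12 FPKM in WT, a log2 difference of 1.92 (SE 0.40, adjusted p = 0.0336, and 0.00294 with the block). That call was lost without WT replicate 1, 2 or 3 (adjusted p = 0.105, 0.0517 and 0.0804), lin28Tg replicate 2 or 3 (0.0976 and 0.104) or let-7Tg replicate 1 (0.0566).

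Prdx4 was the redox gene lower in lin28Tg than in WT CTLs. It was at 24.3, 15.4 and 20.9 FPKM in lin28Tg, 37.7, 35.7 and 40.8 FPKM in WT and 63.1, 60.3 and 44.3 FPKM in let-7Tg, an order without overlap. lin28Tg was below let-7Tg (log2 difference -1.35, SE 0.17, adjusted p = 0.00109). Against WT the log2 difference of lin28Tg was -0.87 (SE 0.17, adjusted p = 0.0289, and 0.0146 with the block), and without the block it did not pass in runs without WT replicate 1, 2 or 3 (adjusted p = 0.0845, 0.0613 and 0.0735), lin28Tg replicate 2 or 3 (0.0780 and 0.0885) or let-7Tg replicate 2 (0.0504).

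Nfe2l2 was at 11.0, 11.4 and 9.24 FPKM in day 5 lin28Tg and 20.1, 18.7 and 31.2 FPKM in let-7Tg (log2 difference -0.98, SE 0.27, adjusted p = 0.0316, and 0.0117 with the block). Txnip was at 88.7, 45.6 and 56.1 FPKM in lin28Tg, 148, 127 and 97.0 FPKM in WT and 184, 148 and 90.5 FPKM in let-7Tg, with lin28Tg below every other library (log2 difference to let-7Tg -1.04, SE 0.29, adjusted p = 0.0306, and 0.00258 with the block). The difference of Txnip to WT was -0.94 (adjusted p = 0.109, and 0.0119 with the block). Without the block neither call against let-7Tg held in each run that left out 1 library. Nfe2l2 was lost without lin28Tg replicate 1, 2 or 3 or let-7Tg replicate 1 or 3 (adjusted p = 0.0604 to 0.101), and Txnip without lin28Tg replicate 2 or 3 or let-7Tg replicate 1 or 2 (0.0955 to 0.110).

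Mt2 stood at 175, 154 and 127 FPKM in day 5 let-7Tg CTLs, 49.6, 45.9 and 71.6 FPKM in WT and 52.2, 73.1 and 54.4 FPKM in lin28Tg. All let-7Tg libraries lay above the other 6, which overlapped. It was the 1 redox gene called higher in let-7Tg than in WT (log2 difference 1.40, SE 0.21, adjusted p = 0.0312, and 0.0205 with the block), and lin28Tg was below let-7Tg (log2 difference -1.24, SE 0.21, adjusted p = 0.00347). The call against WT was lost without WT replicate 1 or 2, let-7Tg replicate 1 or 2 or lin28Tg replicate 3 (adjusted p = 0.0634 to 0.148). Mt1 was at 294, 243 and 203 FPKM in let-7Tg, 188, 126 and 150 FPKM in WT and 146, 169 and 147 FPKM in lin28Tg (log2 difference of lin28Tg to let-7Tg -0.56, SE 0.16, adjusted p = 0.0402, and 0.0239 with the block). Without the block Mt1 did not pass in runs without any 1 lin28Tg library or without let-7Tg replicate 1 or 2 (adjusted p = 0.0557 to 0.140). Mt2 shares exon bases with an opposite-strand gene, Gm45774, and whether counting used strand is not given in the sources used here.

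**Figure D3:**
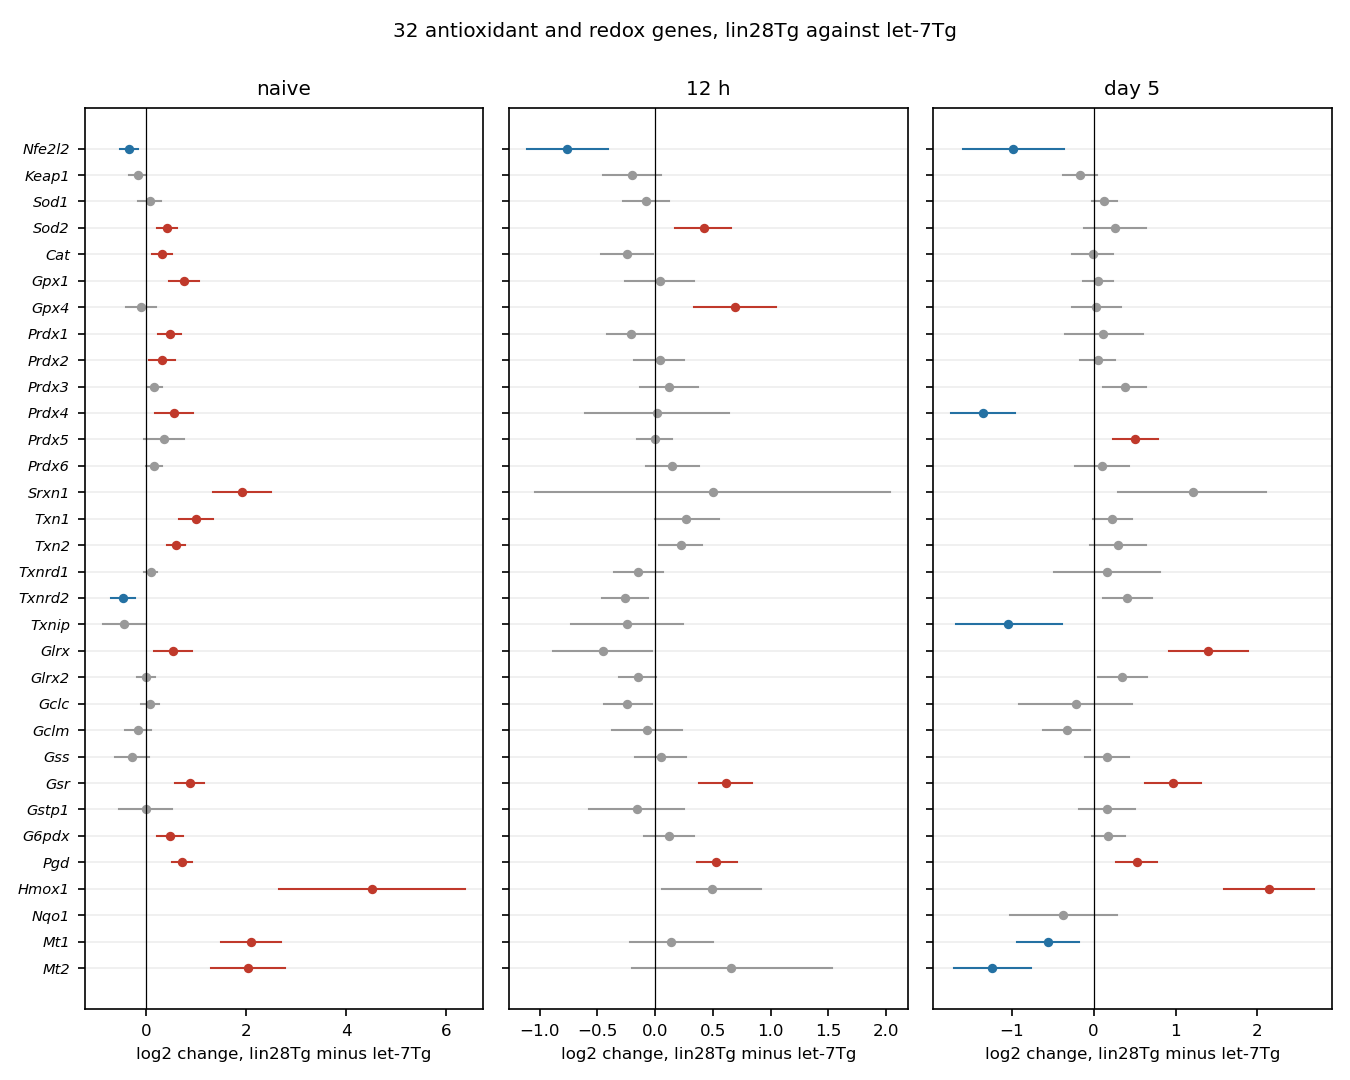
Log2 difference of the 32 redox genes, lin28Tg minus let-7Tg, in naive cells (left), at 12 h (middle) and on day 5 (right), with points for the model estimate and lines for its 95% confidence interval, in red and blue where the limma adjusted p was under 0.05 and in grey otherwise. The horizontal axes differ between panels. Called genes number 16 higher and 2 lower, 4 and 1, and 5 and 5 from left to right, and Nqo1 has no point in the first 2 panels because it was not tested there. The 16 include Mt2, which met the filter on low reads in naive cells only through the lin28Tg libraries.

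**Figure D4:**
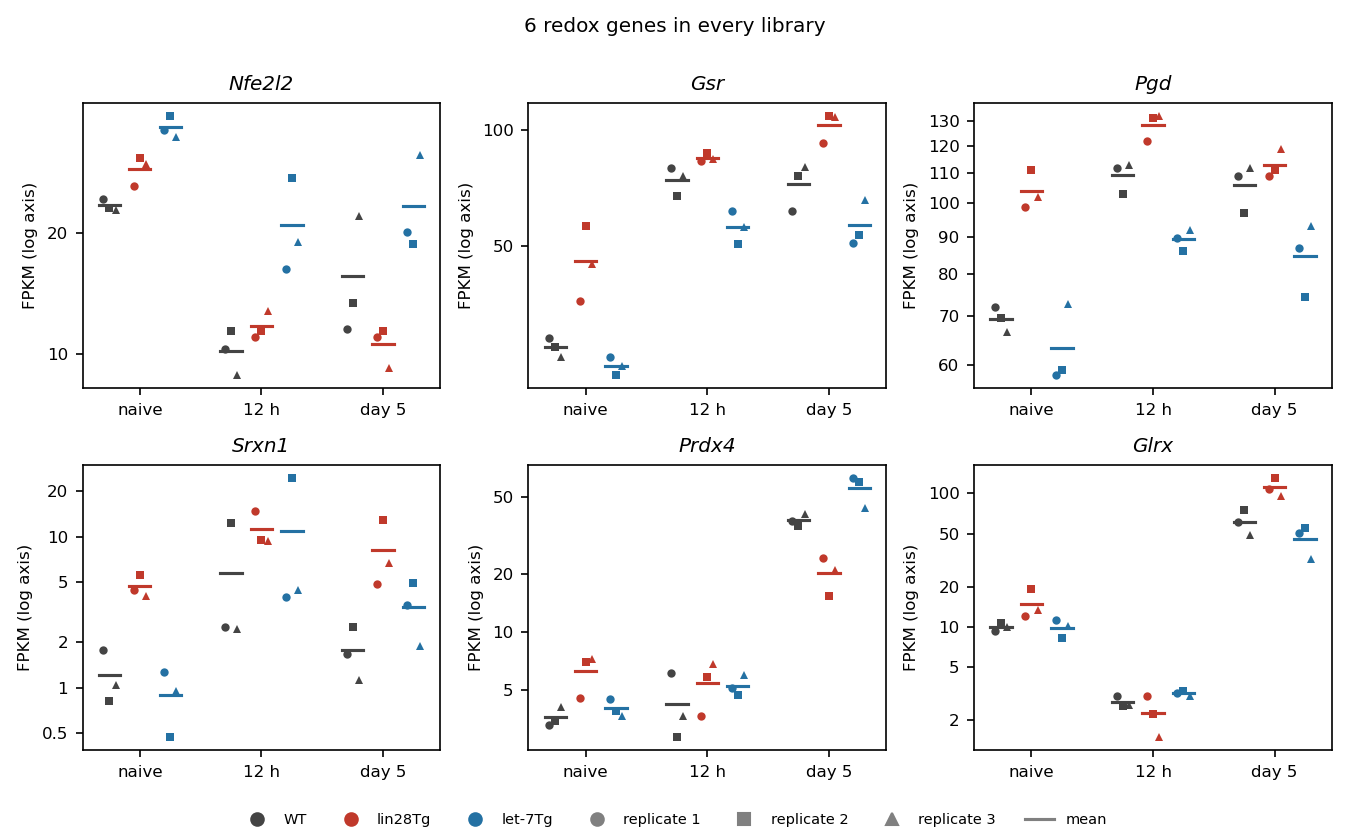
FPKM (log axis) of Nfe2l2, Gsr, Pgd, Srxn1, Prdx4 and Glrx in every library, by stage and genotype, with a line for the mean of 3 libraries. Gsr and Pgd lie higher in lin28Tg than in let-7Tg at each stage, Nfe2l2 lies lower, and Prdx4 and Glrx spread between genotypes on day 5, with Glrx at 95.3 to 131 FPKM in lin28Tg and 32.2 to 54.9 FPKM in let-7Tg.

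**Figure D5:**
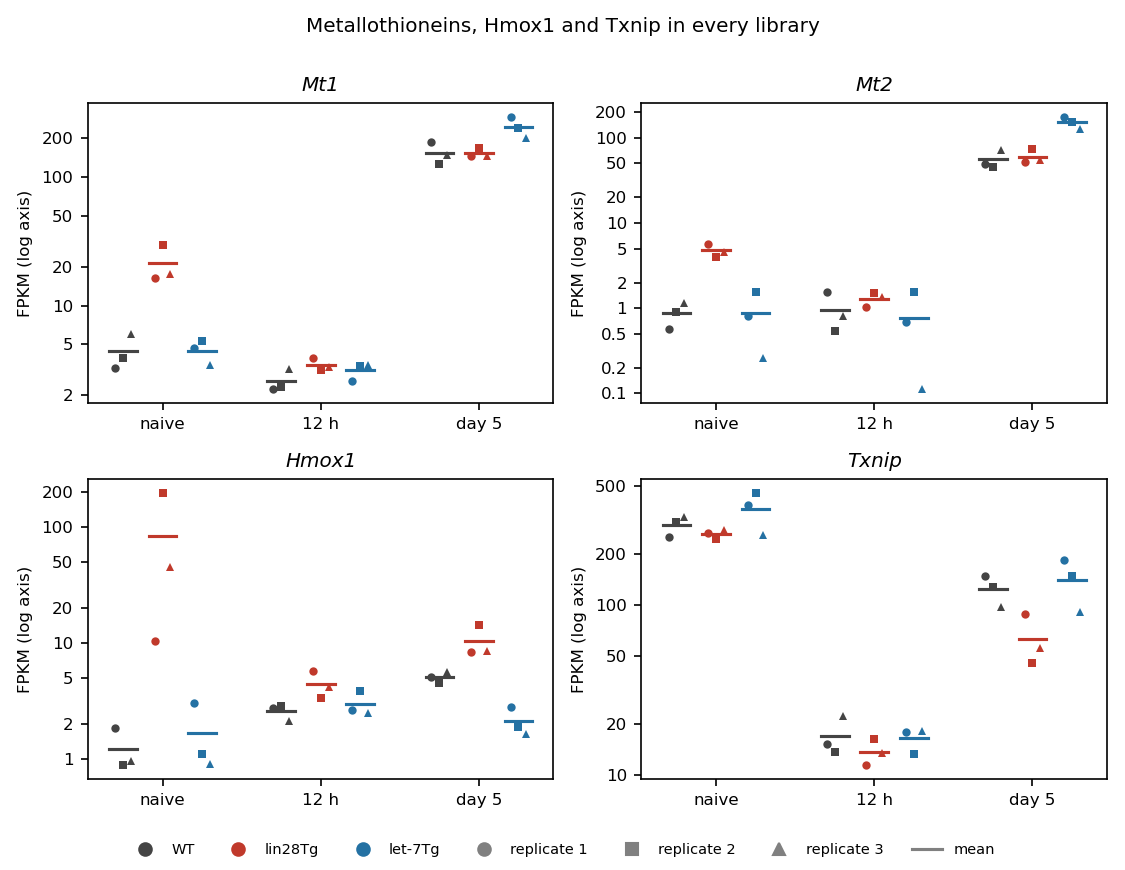
FPKM (log axis) of Mt1, Mt2, Hmox1 and Txnip in every library, by stage and genotype, with a line for the mean of 3 libraries. The metallothioneins rise on day 5 in all genotypes, most in let-7Tg (Mt2 at 127 to 175 FPKM), Hmox1 is spread from 10.4 to 194 FPKM in naive lin28Tg, and Txnip lies at 11.4 to 22.1 FPKM in all 12 h libraries.

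Whether the lin28Tg to let-7Tg difference itself changed with stage was tested in 1 model of all 27 libraries. From naive to 12 h the difference rose for 1 redox gene, Gpx4, and fell for 7 (5.07% and 8.24% of all 14449 genes). The 7 were Cat, Gpx1, Prdx1, Txn1, Glrx, Hmox1 and Mt1. Without naive lin28Tg replicate 2, 1 rose and 4 fell, where 3.59% of all genes rose and 5.06% fell. With replicate 1 as the only naive lin28Tg library the log2 values of Hmox1 and Mt1 were -1.96 and -1.67. From 12 h to day 5 the difference rose for 3 genes, Glrx, Txnrd2 and Glrx2, and fell for 3, Prdx4, Mt2 and Gpx4 (8.17% and 12.0% of all genes). For Glrx the change was 1.84 (SE 0.29, adjusted p = 9.40e-05), for Prdx4 it was -1.38 (SE 0.33, adjusted p = 0.00416) and for Mt2 it was -1.95 (SE 0.50, adjusted p = 0.00673).

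Of the 32 genes, 22 were called in at least 1 of the 9 genotype comparisons and 10 in none, a count that was not made for all genes. Calls were frequent over all genes too, and lin28Tg against let-7Tg in naive cells alone called 5870 of 13262. The 10 redox genes called in none were Keap1, Prdx3, Prdx6, Txnrd1, Glrx2, Gclc, Gclm, Gss, Gstp1 and Nqo1. Among them were the 3 genes of glutathione synthesis, Gclc, Gclm and Gss. With the block, Prdx3, Glrx2 and Gclm of these 10 were called between lin28Tg and let-7Tg on day 5. Gclc was at 10.4 to 29.3 FPKM, Gclm at 11.2 to 26.9 FPKM and Gss at 6.73 to 13.1 FPKM over all libraries. Keap1 kept to a narrow range, 11.3 to 23.8 FPKM. A p that misses the threshold does not show that the genotypes were alike. Gstp1 has a near-identical copy, Gstp2, between which reads could be split, and exons of Keap1, Prdx2, Prdx5, Txnrd2, Txnip, Gclm, Gss and G6pdx overlap genes on the opposite strand, so that their values are uncertain to that extent.

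Genes around the 32 were counted in 6 further lists, given for lin28Tg against let-7Tg in naive, 12 h and day 5 cells. In these comparisons 23.0%, 16.3% and 10.9% of all genes were higher and 21.2%, 14.6% and 10.7% lower, and in naive cells 18.9% and 16.3% without lin28Tg replicate 2 and 11.0% and 7.45% with replicate 1 alone. Of the genes of NADPH and folate supply, 10 of 18 tested were higher and 0 lower in naive lin28Tg cells, 3 of 19 higher and 1 lower at 12 h, and 10 of 20 higher and 0 lower on day 5, with medians of 0.30, 0.034 and 0.35 on the log2 scale. In naive cells 8 were higher and 0 lower without lin28Tg replicate 2, and 6 and 0 with replicate 1 alone. These lists too were chosen with earlier results known. Mthfd2, a mitochondrial folate enzyme, was higher at all 3 stages, with day 5 means of 269 FPKM in lin28Tg and 147 FPKM in let-7Tg (log2 difference 0.99, SE 0.14, adjusted p = 0.00159). H6pd, which forms NADPH in the endoplasmic reticulum, was higher by 0.67 on day 5. Of the oxidant sources, 11 of 16 were higher and 0 lower in naive cells, 6 of 15 and 0 at 12 h, and 5 of 14 higher and 1 lower on day 5, and in naive cells 9 of 15 and 0 without replicate 2 and 5 of 15 and 0 with replicate 1 alone. Ero1l, the oxidase that forms disulfides in the endoplasmic reticulum and yields hydrogen peroxide, was higher at all 3 stages, and on day 5 its means were 109 and 33.8 FPKM (log2 difference 1.79, SE 0.23, adjusted p = 0.00103). Cybb, the catalytic subunit of the phagocyte NADPH oxidase, was at a mean of 4.40 FPKM in lin28Tg and 1.03 FPKM in let-7Tg at 12 h (adjusted p = 0.00100), beside the myeloid sums given above.

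Of the partners and repressors of NRF2 and iron genes, 6 of 22 were higher and 3 lower in naive cells, 3 of 21 and 3 at 12 h, and 9 of 22 and 3 on day 5, so that the naive and 12 h shares were near those of all genes, apart from fewer lower calls in naive cells. Without lin28Tg replicate 2, 7 were higher and 3 lower in naive cells, and with replicate 1 alone 3 and 1. Bach2, a repressor that competes for NRF2 sites and maintains T cell quiescence, was lower in naive lin28Tg cells (means 14.6 and 30.5 FPKM, log2 difference -1.05, SE 0.091, adjusted p = 4.74e-05) and on day 5 (8.90 and 23.6 FPKM, log2 difference -1.26, SE 0.17, adjusted p = 0.00130). The ferritin light chain gene Ftl1 was higher at all 3 stages, with day 5 means of 799 and 409 FPKM (log2 difference 1.06, SE 0.15, adjusted p = 0.00163), and Mafg, a small MAF partner of NRF2, was higher on day 5 by 0.77. Of glutathione supply genes and transferases, 5 of 20 were higher and 5 lower in naive cells, 2 of 22 and 1 at 12 h, and 7 of 23 and 2 on day 5. The naive shares of this list were close to those of all genes and the 12 h shares were below them, and in naive cells 4 of 19 and 3 were called without replicate 2 and 1 and 2 with replicate 1 alone. Chac1, which degrades glutathione, was at day 5 means of 9.17 and 1.41 FPKM (log2 difference 2.38, SE 0.25, adjusted p = 0.000474), the transporter gene Abcc1 was higher by 0.76, and the transferase gene Gstk1 was lower (log2 difference -1.42, 3.52 and 10.9 FPKM). Cth, which makes cysteine, was higher at 12 h, at 6.68 and 1.04 FPKM.

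Of thioredoxin-fold and selenoprotein genes, 9 of 22 were higher and 3 lower in naive cells, 5 of 20 and 2 at 12 h, and 5 of 21 and 0 on day 5, and in naive cells 7 of 21 and 1 without replicate 2 and 4 and 0 with replicate 1 alone. Sephs2, which makes the selenium donor for selenoproteins, was higher at all 3 stages, with day 5 means of 73.8 and 49.9 FPKM (log2 difference 0.66, SE 0.13, adjusted p = 0.00659). Of metal ion genes beside Mt1 and Mt2, 1 of 14 was higher and 4 lower in naive cells, 1 of 14 and 5 at 12 h, and 1 of 15 and 2 on day 5, and in naive cells 1 and 3 without replicate 2 and 1 and 2 with replicate 1 alone. Mt3, another metallothionein gene, was at day 5 means of 1.12 FPKM in lin28Tg and 9.70 FPKM in let-7Tg (log2 difference -2.46, SE 0.47, adjusted p = 0.00610). Its libraries were at 0.579 to 2.03 FPKM in lin28Tg and 3.67 to 15.8 FPKM in let-7Tg, so that it met the filter on low reads mainly through let-7Tg. The zinc transporter gene Slc39a3 was lower in lin28Tg at all 3 stages, with log2 differences of -0.34, -0.78 and -0.75, and in naive cells it did not pass with lin28Tg replicate 1 alone (-0.29, adjusted p = 0.159).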

How the data were processed

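RNA of 27 libraries was sequenced, and per the submitters' processing notes the authors used Bowtie2 2.0.6, TopHat2 2.0.9 and HTSeq 0.6.1 with the builds GRCm38 and mm10. The annotation release, and whether counting used strand, are not given in the sources used here. The deposited values used were the FPKM columns of the 27 libraries, computed by the authors with 1 length per gene. The same tables hold the authors' group mean read counts, log2 fold changes, p-values, adjusted p-values and cluster labels, which were not used. The values were whole multiples of 1 read for 462839 of 462839 values above 0 (100.00%, within 0.05 of a read), which gave library sizes of 13862706 to 23591069 reads, so that 10 reads on a gene of 2 kb came to 0.212 to 0.361 FPKM.

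Genes were kept with at least 10 reads, at the median depth, in 3 libraries and 15 reads in all. FPKM values were scaled with factors from trimmed means of the log ratios between libraries (trims 0.3 and 0.05), and log2(FPKM + 0.5) was tested with limma 3.58.1 in R 4.3.3 with an intensity trend, two-sided, with Benjamini-Hochberg adjustment over all genes tested and a threshold of 0.05. Each stage was fitted on its own 9 libraries, and stage changes and their differences between genotypes in 1 model of 27 libraries. Printed FPKM are unscaled. Tables and plots used Python 3.11.15, pandas 2.3.3, numpy 2.4.6 and matplotlib 3.10.9, and the fits were tested on simulated data.

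The labels give replicate numbers but no shared litter or day. Deviations from group means of same-numbered libraries correlated at 0.245 to 0.716 on day 5 and at 0.24 to 0.549 for let-7Tg and WT at 12 h, above 0.1 in every pair, so the fit with the replicate number as a block is given beside those results. In the other comparisons at least 1 pair was below 0.1. Alternatives were other pseudocounts, no filter, no scaling or median of ratios scaling, voom on the recovered reads, other sets of libraries in the fit, and leaving out each library. voom called 5873, 3882 and 2911 genes between lin28Tg and let-7Tg in naive, 12 h and day 5 cells, against 5870, 3777 and 2810 in the main fit. The use of lin28Tg replicate 1 alone was chosen after seeing the data.

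The 32 genes, the marker lists and the 6 further pathway lists were chosen with earlier results of these data known. The rule for genes given in every library took those called in 2 or more of the 9 genotype comparisons and those with the smallest adjusted p of a comparison in each direction. It also took the 3 with the largest WT stage change in each direction, and Nfe2l2 and Keap1 always. Not all of these are printed with the value of every library. Library values of Sod1, Gpx4, Prdx5, Gclc and Txnrd1 are printed outside this rule. Of the further lists, up to 3 called genes per list and stage with the smallest adjusted p could be named.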

Additional observations from a re-analysis of the deposited data

Results flagged for a closer look

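The lin28Tg to let-7Tg difference of some redox genes changed between stages, by a test of that change in limma with Benjamini-Hochberg adjustment. From naive to 12 h the log2 difference changed by -4.00 for Hmox1 (SE 0.82, adjusted p = 0.00240) and by -1.95 for Mt1 (SE 0.31, adjusted p = 0.000304). It changed by -1.01 for Glrx (adjusted p = 0.0252), -0.73 for Txn1 (0.0199), -0.72 for Gpx1 (0.0144), -0.69 for Prdx1 (0.0453) and -0.57 for Cat (0.0138), and by 0.80 for Gpx4 (0.0223). The naive side of these changes rests on lin28Tg libraries with myeloid marker sums of 247 to 990 FPKM, whose part was not tested. With lin28Tg naive replicate 1 alone, where fewer libraries enter the test, the values were -1.96 for Hmox1 and -1.67 for Mt1, which passed. They were 0.88 for Gpx4, -0.78 for Glrx, -0.54 for Gpx1, -0.54 for Prdx1, -0.48 for Cat and -0.41 for Txn1, which did not. Hmox1 did not pass with voom (adjusted p = 0.194). Without lin28Tg naive replicate 2 the values of Glrx (-0.82, adjusted p = 0.0856), Txn1 (-0.59, 0.0642) and Prdx1 (-0.61, 0.123) did not pass. Glrx was also lost without let-7Tg naive replicate 2 (0.0695) or lin28Tg 12 h replicate 3 (0.0881), Txn1 without lin28Tg 12 h replicate 1 (0.0566) or let-7Tg 12 h replicate 3 (0.0593), and Prdx1 in most runs that left out 1 library.

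From 12 h to day 5 the difference changed by 1.84 for Glrx (adjusted p = 9.40e-05), 0.65 for Txnrd2 (0.00532) and 0.48 for Glrx2 (0.0122), and by -1.95 for Mt2 (0.00673), -1.38 for Prdx4 (0.00416) and -0.69 for Gpx4 (0.0363). Gpx4 thus changed in opposite directions at the 2 steps, from means of 187 and 200 FPKM in naive lin28Tg and let-7Tg cells to 87.1 and 53.9 FPKM at 12 h and 232 and 245 FPKM on day 5.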

How the results depend on the processing

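Reversed and lost calls were counted only for the 20 redox genes picked by the rule for genes given in every library. The other redox genes were not part of this count. None of the 20 reversed the direction of a call under any alternative. Of 155 called pairs of these genes and a comparison, 126 kept the call whichever library was left out. Under every other choice 115 kept it. The numbers of redox genes called moved as follows, and the cause was not tested. With lin28Tg naive replicate 1 alone, lin28Tg against WT in naive cells went from 15 to 4, lin28Tg against let-7Tg from 18 to 10 and the change of that difference to 12 h from 8 to 2, with fewer libraries. That change was 5 with voom on recovered reads, where the calls over all genes went from 1923 to 832. The shares of all genes called were also lower with replicate 1 alone. For let-7Tg against WT in naive cells, 2 became 1 with no filter, no scaling, voom or only the 6 libraries compared, and 0 with all 27 libraries in 1 model. At 12 h, lin28Tg against WT went from 0 to 2 with no scaling and to 1 with median of ratios scaling, the replicate block, voom, only the 6 libraries or all 27. let-7Tg against WT went from 1 to 0 with no filter or only the 6 libraries, to 2 with median of ratios scaling and to 3 with no scaling or all 27, and lin28Tg against let-7Tg from 5 to 8 with no scaling. On day 5, lin28Tg against WT went from 3 to 0 with no filter or only the 6 libraries, to 6 with the replicate block and to 5 with all 27. let-7Tg against WT went from 1 to 0 with no filter or only the 6 libraries, to 5 with the block and to 2 with all 27, and lin28Tg against let-7Tg from 10 to 17 with the block. Over all genes the block on day 5 called 1756, 533 and 4734 genes in these 3 comparisons, against 566, 122 and 2810.

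Leaving out 1 library gave 10 to 18, 0 to 2 and 15 to 19 genes in naive cells for lin28Tg against WT, let-7Tg against WT and lin28Tg against let-7Tg, 0 to 2, 0 to 4 and 4 to 9 at 12 h, and 0 to 3, 0 to 1 and 6 to 13 on day 5. The stage changes gave 25 to 26 and 19 to 24 in WT, and the changes of the lin28Tg to let-7Tg difference 5 to 8 at both steps. The share of higher genes among all those called moved without scaling from 32.3% to 51.0% for let-7Tg against WT in naive cells and from 61.5% to 72.4% on day 5. Low levels limit Nqo1, Srxn1 and naive Mt2, where few reads stand behind each value.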
